A study of Mus musculus with 8 samples.

Results

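The 10 genes described here, Cdkn1a, Mdm2, Ccng1, Trp53inp1, Bax, Pmaip1, Sesn2, Phlda3, Perp and Btg2, are transcribed under the control of p53, and they were set out as a group to ask whether mouse embryos that lack Foxa2 carry a p53 response. Every probe set annotated to 1 of them alone was taken, which gave 8 of 12422 probe sets (7 genes of 8253) on the Affymetrix U74Av2 array and 17 of 45037 probe sets (9 genes of 18194) on the MOE430v2 array, and 6 of the genes could be tested on both. A probe set is a group of short probes against 1 transcript. No probe set of a member named a second gene. Trp53inp1, Pmaip1 and Sesn2 were read on MOE430v2 alone in the annotation used here. Bax was analysed on U74Av2 alone, and its probe set there was tied to the gene through a supplementary list of the study that holds probe sets selected on these same samples, so that its choice was not independent of the data.

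Foxa2 null pools held 53 and 48 embryos and wild-type pools held 53 and 50, all at embryonic day 7.5, between mid-streak and head-fold stages, with the extra-embryonic region dissected away and the sexes mixed. Foxa2 null embryos were made from Foxa2 null embryonic stem cells aggregated with tetraploid host embryos, so that the visceral endoderm was host-derived and was kept on the embryo, whereas wild-type embryos came from matings of ICR mice. The labels give the ICR strain for mutant pools as well, which leaves the strain of the mutant cells unsettled, and genotype cannot be told apart from the way the embryos were produced. RNA of each of the 4 pools was hybridized to 1 array of either type, 8 arrays in all, so that the platforms repeat the same extracts and n is 2 pools per genotype throughout. Wild-type pool 2 was staged as the younger of the wild-type pools.

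In a resting cell p53 is made continuously and is destroyed through Mdm2, and DNA damage or other stress breaks that contact so that p53 accumulates and binds DNA. Its target genes then slow the cell cycle (Cdkn1a, Btg2), restrain p53 itself (Mdm2, Ccng1), promote cell death (Bax, Pmaip1, Perp, Phlda3, Trp53inp1) or adjust metabolism (Sesn2). The gastrulating mouse epiblast divides very fast and is known to enter apoptosis readily after DNA damage. Loss of Mdm2 in the mouse is lethal near implantation and is rescued by loss of p53.

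p53 binds DNA as a tetramer at a response element made of a pair of half-sites. The p53 consensus half-site, which is 10 bases long and reads the same on both strands, was searched in RefSeq promoter windows of assembly GRCm38.p6 that run from 250 bases before to 50 bases after each annotated start. Of the 10 genes, 7 had a window, with 8 windows among them because Cdkn1a has 2 starts, and Trp53inp1, Pmaip1 and Perp had none. An exact half-site was found in 4 member windows, and it was found in 8.36% of all 32851 windows. Allowing 1 mismatch over the pair and a spacer of 0 to 13 bases, a full site was found in 3 member windows (Cdkn1a, Ccng1 and Bax) and in 1.09% of all windows. The stretches that hold these letters are shown because they are what ties the promoter to p53 by sequence. Capitals mark exact half-sites and the pair with the fewest mismatches, and each stretch is written along the strand of its gene.
Cdkn1a (chr17:29090891-29090952, plus strand): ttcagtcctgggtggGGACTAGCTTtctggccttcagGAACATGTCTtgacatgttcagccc
Ccng1 (chr11:40755447-40755496, minus strand): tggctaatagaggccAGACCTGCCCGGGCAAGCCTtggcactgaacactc
Bax (chr7:45467075-45467125, minus strand): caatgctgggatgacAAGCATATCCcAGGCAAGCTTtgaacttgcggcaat
Mdm2 (chr10:117710920-117710959, minus strand): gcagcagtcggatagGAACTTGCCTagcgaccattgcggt
In the Cdkn1a stretch the capitals span the bases from 73 to 42 before the upstream start and both half-sites are exact, with 12 bases between them. The 10 lower-case bases right after the second half-site also match the consensus with 1 mismatch, and they abut that half-site with no spacer. That pair meets the rule for a full site as well, and it is not in capitals because the search ranked pairs by mismatches before spacer. The Ccng1 pair abuts with no spacer, the Bax pair is separated by 1 base, and each of these pairs carries 1 mismatch. Mdm2 holds a single exact half-site in this window. No half-site with these letters lay in the windows of Btg2, Phlda3, Sesn2 or the downstream start of Cdkn1a, which says only that the letters are not in those windows. A match of letters is a description of the sequence and not a measurement of binding.

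None of the 10 genes differed between Foxa2 null and wild-type pools at the threshold used, an adjusted p under 0.05 by limma with Benjamini-Hochberg adjustment over all probe sets tested. On U74Av2, 0 of 8 member probe sets were called, where 0.276% of all 8695 probe sets tested were called in either direction. On MOE430v2, 0 of 16 were called, where 0.435% of 31526 were called, and at such shares a count of 0 would be the usual one for so few probe sets. At an unadjusted p under 0.05 no member probe set was higher or lower on U74Av2, against 5.01% of all probe sets in each direction. On MOE430v2 there was 1 higher, against 6.04% of all probe sets, and 1 lower, against 6.07%. A permutation test of 2 pools against 2 cannot give an exact p below 0.333, so the limma fit, which borrows the spread of all probe sets of like signal, is the test given throughout.

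The 95% intervals give the sizes of difference that these pools allow. Reading each gene at its brightest probe set by mean over the pools, the upper end of the 95% interval lay below a log2 ratio of 1, which is a 2-fold rise, for 7 of 7 genes on U74Av2 (85.8% of all genes there) and for 9 of 9 on MOE430v2 (78.7% of all genes). Over all member probe sets this held for 8 of 8 on U74Av2 (84% of all probe sets) and for 14 of 16 on MOE430v2 (71.7% of all probe sets), the exceptions being Ccng1 at 1450017_at and Sesn2 at 1425139_at, with upper ends of 1.12 and 1.23. Counted by genes at their brightest probe set, fewer lay below a 2-fold rise on U74Av2 when any 1 pool was left out. On MOE430v2 the count of genes fell or stayed the same, depending on the pool. The processing mattered too. On U74Av2 the count of genes was 6 with cyclic loess, quantile normalization, median centring or no filter on dim probe sets. On MOE430v2 it was 7 in a fit with no trend of variance on intensity. The median log2 ratio over the genes was -0.096 on U74Av2, where the median of all 6412 genes tested was -0.011, and 2 of 7 genes were above 0, against 48.7% of all genes. On MOE430v2 the median was 0.16 beside -0.015 for all 14180 genes, and 8 of 9 genes were above 0, against 48.1% of all genes. Leaving out 1 pool turned the sign of the U74Av2 median, and leaving out another shrank the MOE430v2 median. Without Foxa2 null pool 1 the U74Av2 median was 0.054 with 4 genes above 0, and without wild-type pool 1 the MOE430v2 median was 0.021 with 5 genes above 0.

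**Figure D1:**
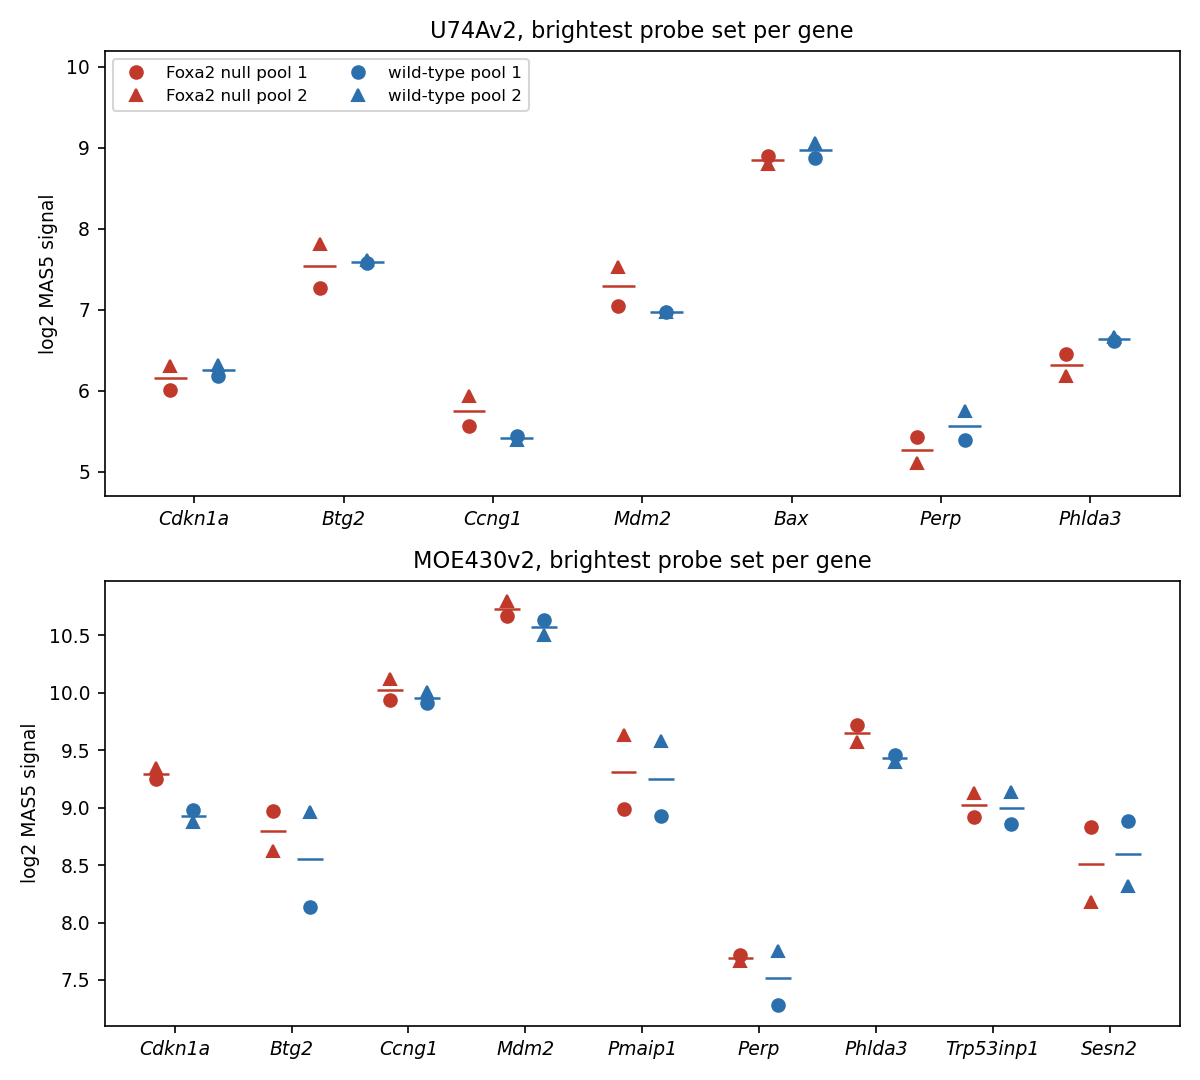
Log2 MAS5 signal (vertical axis) of the brightest probe set of each member gene (horizontal axis) on U74Av2 (top) and MOE430v2 (bottom), with Foxa2 null pools in red on the left of each gene, wild-type pools in blue on the right, circles for pool 1, triangles for pool 2 and a short line at the mean of the pair. Signals of different genes come from different probes and are not comparable in height. Cdkn1a on MOE430v2 has both Foxa2 null pools at 9.25 and 9.34 above both wild-type pools, whereas Pmaip1 and Sesn2 spread by pool number within each genotype.

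Among the genes that slow the cell cycle, Cdkn1a, which encodes the kinase inhibitor p21 and is the standard readout of p53 activity, had a log2 signal of 9.25 and 9.34 in Foxa2 null pools and of 8.98 and 8.88 in wild-type pools at its bright MOE430v2 probe set (1424638_at). The null pools lay above both wild-type pools there, with a log2 ratio of 0.37 (standard error 0.19, 95% interval -0.049 to 0.79, adjusted p = 0.474), a 1.29-fold difference that did not pass the test. The U74Av2 probe sets gave no such separation, but they were dimmer for their array. Their mean signals stood at percentiles 57.5 (98067_at) and 47.2 (94881_at), against 76.4 for 1424638_at on MOE430v2. At 98067_at the null pools read 6.005 and 6.30 and the wild-type pools 6.18 and 6.32, a log2 ratio of -0.096 (95% interval -0.64 to 0.45). At 94881_at the null pools read 5.36 and 5.75 and the wild-type pools 5.24 and 5.38, a ratio of 0.25 (95% interval -0.45 to 0.94). The groups overlapped at both. A further MOE430v2 probe set (1421679_a_at) read 4.78 and 4.41 in null pools and 3.85 and 4.19 in wild-type pools, with the null pools higher, but was among the dimmest 30% of the array and was not tested.

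Btg2 encodes an antiproliferative protein that works with the mRNA deadenylation machinery. On U74Av2 it read 7.27 and 7.81 in Foxa2 null pools and 7.57 and 7.61 in wild-type pools, so that the null pools lay on either side of the wild-type pair and the log2 ratio was -0.052 (95% interval -0.54 to 0.44). Its brighter MOE430v2 probe set (1416250_at) read 8.97 and 8.62 in null pools and 8.13 and 8.96 in wild-type pools, with a ratio of 0.25 (95% interval -0.43 to 0.92), and wild-type pool 1 was the one that stood low. At 1448272_at the order of the wild-type pools was turned round, with 8.44 and 8.62 in null pools against 8.66 and 8.18 in wild-type pools and a ratio of 0.11.

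Mdm2, the ubiquitin ligase that sends p53 to the proteasome, was the one member whose Foxa2 null pools lay above both wild-type pools at its brightest probe set on each platform. On U74Av2 its log2 signal was 7.05 and 7.53 in null pools and 6.98 and 6.97 in wild-type pools, a ratio of 0.31 (standard error 0.22, 95% interval -0.18 to 0.81, adjusted p = 0.709). On MOE430v2 (1423605_a_at) it was 10.67 and 10.80 in null pools and 10.64 and 10.50 in wild-type pools, a ratio of 0.16 (standard error 0.13, 95% interval -0.14 to 0.46, adjusted p = 0.674). In both cases null pool 1 exceeded the higher wild-type pool by little, and null pool 2 carried most of the difference. The other MOE430v2 probe sets for Mdm2 did not show it. At 1427718_a_at the null pools read 9.45 and 9.59 and the wild-type pools 9.72 and 9.50, a ratio of -0.090. At 1457929_at, whose mean signal stood only at percentile 34.7 of the array, the null pools read 4.00 and 6.22 and the wild-type pools 7.27 and 6.80, a ratio of -1.92 (95% interval -3.75 to -0.093, unadjusted p = 0.0414 by limma, adjusted p = 0.390). The null pools differed from each other there by more than any other member probe set, and which part of the Mdm2 transcript each probe set reads was not examined.

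Ccng1 encodes cyclin G1, which brings a phosphatase to Mdm2 and lowers p53 activity. It had 3 probe sets on MOE430v2, and they gave different sizes. At 1450017_at the log2 signal was 9.27 and 9.43 in Foxa2 null pools and 8.67 and 8.66 in wild-type pools, a ratio of 0.69 (standard error 0.19, 95% interval 0.25 to 1.12) or 1.61-fold, with an unadjusted p of 0.00587 by limma and an adjusted p of 0.196. This was the lowest p among the members, and every null pool lay above every wild-type pool. The brighter probe sets did not separate the genotypes. At 1420827_a_at the null pools read 10.30 and 9.97 and the wild-type pools 9.52 and 10.07, a ratio of 0.34 (95% interval -0.14 to 0.82). At 1450016_at the null pools read 9.94 and 10.12 and the wild-type pools 9.91 and 10.01, a ratio of 0.070 (95% interval -0.28 to 0.42). On U74Av2 the gene read 5.56 and 5.93 in null pools and 5.44 and 5.39 in wild-type pools, separated but with a wide interval (ratio 0.33, -0.32 to 0.99). Wherever the null pools of Mdm2 or Ccng1 lay above the wild-type pools, pool 2 was the higher of the null pools.

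The genes that act in cell death showed no common direction. Bax, which forms pores in the outer mitochondrial membrane, read 8.89 and 8.80 in Foxa2 null pools and 8.87 and 9.06 in wild-type pools on U74Av2, a log2 ratio of -0.12 (95% interval -0.47 to 0.22, adjusted p = 0.855). The pools overlapped.

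Pmaip1 encodes Noxa, a protein with only the BH3 domain that neutralizes Mcl1. On MOE430v2 it read 8.99 and 9.63 in Foxa2 null pools and 8.93 and 9.58 in wild-type pools, a log2 ratio of 0.055 (95% interval -0.57 to 0.68). Pool 1 was below pool 2 by 0.64 in the null genotype and by 0.65 in wild-type, so that the pools fell apart by their number and hardly at all by genotype. Taken within a number, the null pool was above its wild-type counterpart by 0.059 for number 1 and by 0.052 for number 2. The numbers only name the pools, and nothing in the labels pairs them.

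Perp is a membrane protein of desmosomes that is needed in stratified epithelia and takes part in p53-dependent death. On U74Av2 it read 5.42 and 5.10 in Foxa2 null pools and 5.39 and 5.74 in wild-type pools, with a log2 ratio of -0.31 (95% interval -1.01 to 0.40). On MOE430v2 it read 7.72 and 7.67 in null pools and 7.28 and 7.75 in wild-type pools, with a ratio of 0.18 (95% interval -0.55 to 0.91). Pools overlapped on both platforms. The 10 markers of surface and simple epithelium, all tested, summed to a signal of 3780.4 and 3289 in null pools against 3456 and 3890 in wild-type pools on U74Av2, and to 39343 and 36104 against 36609 and 38253 on MOE430v2, and these sums overlapped too.

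Phlda3 binds membrane phosphoinositides in competition with the survival kinase Akt. Its probe sets went opposite ways in the same extracts. On U74Av2 the log2 signal was 6.45 and 6.18 in Foxa2 null pools and 6.61 and 6.66 in wild-type pools, with every null pool lower and a ratio of -0.32 (95% interval -0.83 to 0.18, adjusted p = 0.707). On MOE430v2 it was 9.72 and 9.57 in null pools and 9.46 and 9.40 in wild-type pools, with every null pool higher and a ratio of 0.22 (95% interval -0.16 to 0.60, adjusted p = 0.647). Both intervals span 0.

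Trp53inp1, a stress protein that interacts with p53 and promotes its pro-apoptotic form, had the ratio nearest to 0 of any member probe set tested. At 1416926_at on MOE430v2 it read 8.92 and 9.13 in Foxa2 null pools and 8.86 and 9.13 in wild-type pools, a log2 ratio of 0.031 (95% interval -0.43 to 0.49). At 1416927_at it read 7.73 and 7.78 in null pools and 7.44 and 7.84 in wild-type pools, a ratio of 0.12 (95% interval -0.57 to 0.81).

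Sesn2 encodes sestrin 2, a stress-induced inhibitor of mTORC1 signalling. Its brighter MOE430v2 probe set (1451599_at) read 8.84 and 8.18 in Foxa2 null pools and 8.88 and 8.32 in wild-type pools, a log2 ratio of -0.093 (95% interval -0.76 to 0.58), and here pool 1 exceeded pool 2 by 0.66 in the null genotype and by 0.56 in wild-type. The dimmer probe set (1425139_at) read 7.73 and 8.002 in null pools and 7.22 and 7.47 in wild-type pools, a ratio of 0.52 (standard error 0.31, 95% interval -0.19 to 1.23, adjusted p = 0.563). The genotypes were separated at the dimmer probe set only, and its interval reached past a 2-fold rise.

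**Figure D2:**
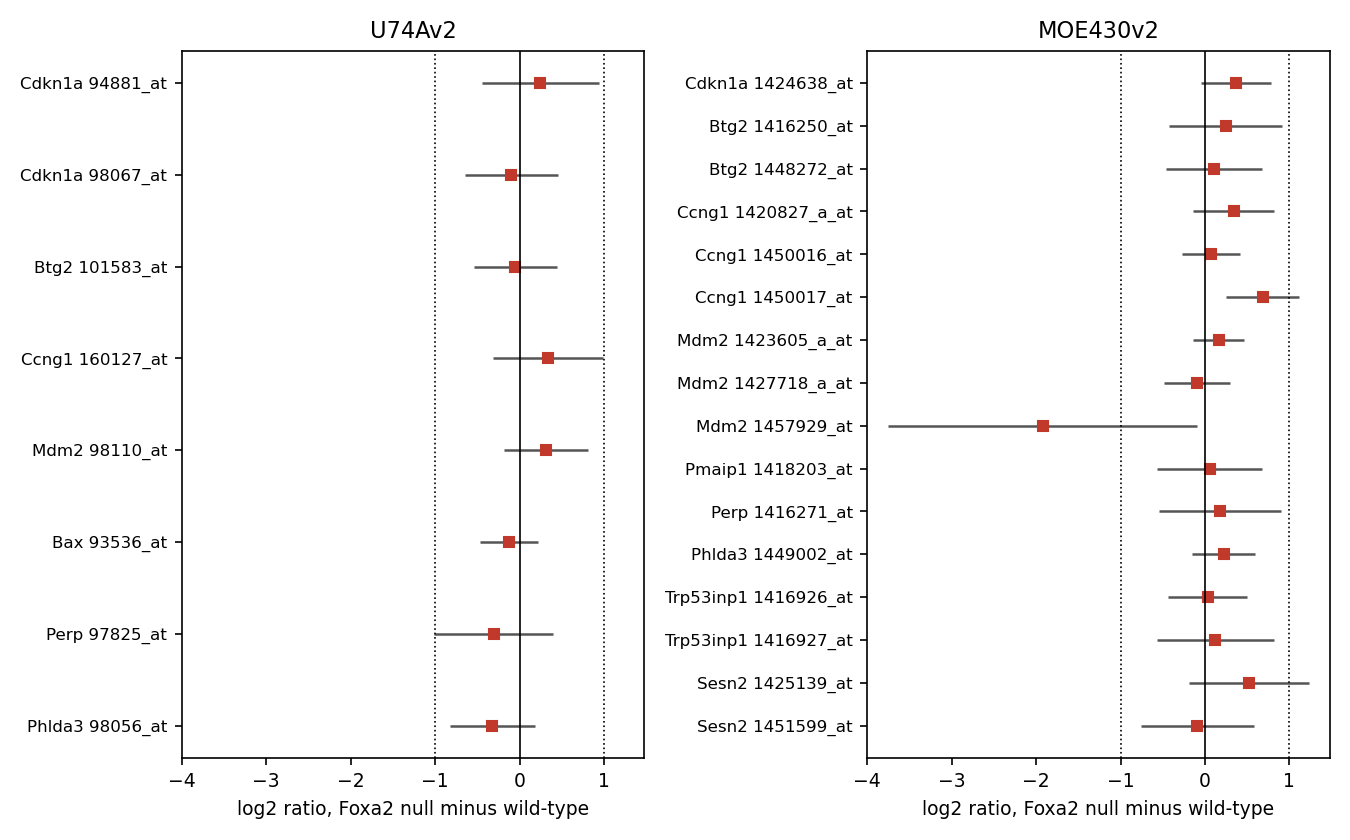
Ratio of Foxa2 null over wild-type pools on the log2 scale (horizontal axis, square) with its 95% interval from limma (line) for each member probe set tested on U74Av2 (left, 8 probe sets) and MOE430v2 (right, 16 probe sets); the solid line marks no difference and dotted lines mark 2-fold changes. Intervals of Ccng1 1450017_at, above 0, and Mdm2 1457929_at, below 0, are the ones that leave out 0 before adjustment.

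The count of members whose pools did not overlap was read against the same count over all probe sets. On U74Av2 both null pools lay above both wild-type pools at 2 of 8 member probe sets, against 18.6% of all probe sets, and below at 1, against 21.4%. On MOE430v2 they lay above at 5 of 16, namely those of Ccng1, Cdkn1a, Mdm2, Phlda3 and Sesn2 given above, against 21.5% of all probe sets. They lay below at 1 of 16, the dim Mdm2 probe set, against 21.8%. These shares are near the background for so small a group. When the 2 arrays of an extract were averaged for the 6 genes tested on both platforms, 0 of 6 were called, against 2.41% of all 5933 such genes, and 0 reached an unadjusted p under 0.05, against 7.43% higher and 7.84% lower. The log2 ratios were 0.24 for Mdm2 (standard error 0.15, 95% interval -0.088 to 0.56, adjusted p = 0.501), 0.20 for Ccng1, 0.14 for Cdkn1a, 0.097 for Btg2, -0.050 for Phlda3 and -0.064 for Perp. Null pools lay above wild-type pools for 3 of the 6 (Mdm2, Ccng1 and Cdkn1a), against 22.2% of all genes, and 4 of the 6 ratios were above 0, against 48.4%. No upper end of an interval exceeded 0.59, and all 6 lay below a 2-fold rise, as did those of 94% of all genes. For Mdm2 the average over all its probe sets, in place of the brightest, turned the ratio to -0.15. That average gives the dim probe set 1457929_at, with its ratio of -1.92, the same weight as the other MOE430v2 probe sets.

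p53 itself, encoded by Trp53, was read by 2 U74Av2 probe sets, which were named through the same supplementary list as Bax. At one of them the log2 signal was 9.11 and 9.19 in Foxa2 null pools and 9.59 and 9.18 in wild-type pools, a ratio of -0.24 (95% interval -0.62 to 0.15, adjusted p = 0.723). At the other it was 8.45 and 8.91 in null pools and 8.77 and 8.43 in wild-type pools, a ratio of 0.076 (95% interval -0.39 to 0.54). The pools overlapped at both, and p53 is regulated mainly through protein stability, which arrays do not measure.

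The wider pathway was described by 4 lists of textbook genes. Of 31 other p53 target genes, 14 were tested on U74Av2 and 27 on MOE430v2, and none was called in either direction, against 0.218% of all genes on U74Av2 and 0.458% on MOE430v2. Their median log2 ratio was 0.15 on U74Av2 and 0.066 on MOE430v2, and 10 of the 14 and 14 of the 27 were above 0. At an unadjusted p under 0.05 there were 0 on U74Av2, against 5.13% of all genes higher and 4.98% lower, and on MOE430v2 there were 0 higher and 2 lower of 27, against 6.28% and 7%. In the fit over both platforms 1 of 13 was higher and 1 lower at that threshold, Gtse1 (ratio 0.47) and Plk2 (ratio -1.04), with adjusted p of 0.302 and 0.133 by limma. Sesn1, a relative of Sesn2, was the target whose null pools lay above the wild-type pools on both platforms with the largest mean ratio, with a ratio of 0.36 on U74Av2, 0.39 on MOE430v2 and adjusted p of 0.701 and 0.498. Plk2, a polo-like kinase, had the largest ratio in the other direction, with a ratio of -0.34 on U74Av2, -1.74 on MOE430v2 and adjusted p of 0.699 and 0.295. Ptp4a3, a phosphatase, was at -0.40 and -0.31, and Siva1, an apoptosis regulator, was at -0.22 and -0.20 on U74Av2 and MOE430v2, with both null pools below both wild-type pools on either platform.

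Of 22 regulators of p53, 12 were tested on U74Av2 and 20 on MOE430v2. None was called on a single platform, against 0.218% of all genes on U74Av2 and 0.458% on MOE430v2. In the fit over both platforms, where 11 were tested and 1.06% of all genes were called lower, 1 fell. This was Atm, the kinase that signals DNA double-strand breaks to p53. Its log2 signal was 6.79 and 6.56 in Foxa2 null pools and 7.57 and 7.60 in wild-type pools on U74Av2, a ratio of -0.91 (adjusted p = 0.135). On MOE430v2 it was 9.59 and 9.88 in null pools and 10.22 and 10.16 in wild-type pools, a ratio of -0.46 (adjusted p = 0.308). Over both platforms the ratio was -0.68 (standard error 0.14, adjusted p = 0.0346). In the alternatives run for that fit the Atm ratio lay between -1.02 and -0.67. Leaving out wild-type pool 1 gave an adjusted p of 0.114, leaving out wild-type pool 2 gave 0.1, and a limma fit with no trend of variance on intensity gave 0.155. Crebbp, an acetyltransferase that modifies p53, stood at -0.26 on U74Av2 and -0.033 on MOE430v2, with null pools below wild-type pools on each and no call. The median of the regulators was -0.019 on U74Av2 and 0.030 on MOE430v2. At an unadjusted p under 0.05 by limma, 1 of 12 was higher and 1 lower on U74Av2, against 5.13% and 4.98% of all genes. On MOE430v2 there were 1 higher and 3 lower of 20, against 6.28% and 7%.

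p53 is known to lower many genes of cell division through p21. Of 19 such genes, 18 were tested on each platform, with a median log2 ratio of 0.0085 on U74Av2 and -0.050 on MOE430v2. None was called on a single platform, against 0.218% of all genes on U74Av2 and 0.458% on MOE430v2. None was called lower in the fit over both, against 1.06% of all genes. At an unadjusted p under 0.05 by limma, 2 of 18 were higher and 0 lower on U74Av2, against 5.13% and 4.98% of all genes. On MOE430v2 there were 1 higher and 0 lower of 18, against 6.28% and 7%. In the fit over both platforms, where 1.35% of all genes were called higher, 1 of 18 was called higher. This was Mcm5, a subunit of the replicative helicase, at 0.43 (standard error 0.0914, adjusted p = 0.0420). Its log2 signal was 11.49 and 11.33 in Foxa2 null pools and 11.04 and 10.84 in wild-type pools on U74Av2 (ratio 0.47), and 13.76 and 13.73 in null pools and 13.39 and 13.33 in wild-type pools on MOE430v2 (ratio 0.39). That call did not hold when all its probe sets were averaged (ratio 0.093, adjusted p = 0.860) or without Foxa2 null pool 1 (adjusted p = 0.0863), wild-type pool 1 (0.0746) or wild-type pool 2 (0.179), nor with no intensity trend (0.265). Ccne1, cyclin E1, stood at 0.32 and 0.10, and Cdc25c, the phosphatase that starts mitosis, stood at -0.29 on U74Av2 and -0.29 on MOE430v2, each separated in the same direction on both platforms and neither passing the test.

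Among 17 genes of mitochondrial apoptosis, 12 were tested on U74Av2 and 15 on MOE430v2. None was called, against 0.218% of all genes on U74Av2 and 0.458% on MOE430v2. At an unadjusted p under 0.05 by limma there were 0 on U74Av2, against 5.13% of all genes higher and 4.98% lower. On MOE430v2 there were 0 higher and 2 lower of 15, against 6.28% and 7%. The median log2 ratio was 0.013 on U74Av2 and -0.048 on MOE430v2. Bcl2l11, which encodes the death-promoting protein Bim, had the largest ratio downward among those separated on both platforms, with a U74Av2 ratio of -0.31 (adjusted p = 0.638) and a MOE430v2 ratio of -0.60 (adjusted p = 0.154). Birc2, an inhibitor of apoptosis, had the largest upward at 0.42 (adjusted p = 0.586) and 0.31 (adjusted p = 0.569). The plot of pathway ratios shows that the members lie within the span of the other lists.

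**Figure D3:**
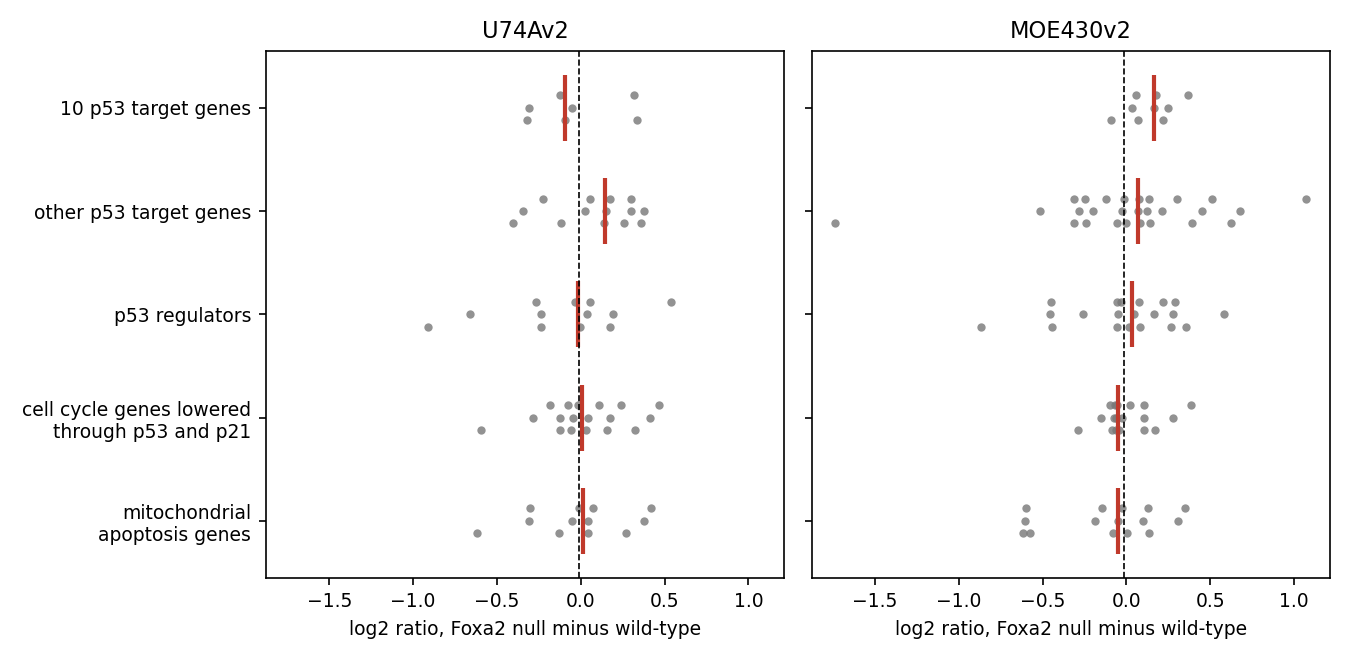
Ratio of Foxa2 null over wild-type pools on the log2 scale (horizontal axis) for each gene tested (grey points) of the 10 p53 target genes and of 4 textbook lists (rows) on U74Av2 (left) and MOE430v2 (right); red bars are list medians and the dashed line is the median of all genes tested. List medians lie between -0.096 and 0.16, and the points of each list fall on both sides of the dashed line.

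The pools were checked against their labels and against other cells. Foxa2 itself was lower in both null pools, at 6.39 and 6.55 against 7.37 and 8.08 in wild-type pools on U74Av2 and at 8.96 and 9.06 against 9.61 and 10.17 on MOE430v2, with ratios of -1.25 (adjusted p = 0.130), -0.88 (adjusted p = 0.142) and -1.07 over both platforms (adjusted p = 0.0309, or 0.101 without wild-type pool 2 and 0.195 with no intensity trend), and whether the probes lie in the deleted part was not examined. Markers of the labelled epiblast were present in all pools, and their summed signal was 2364 and 3308 in null pools against 2396 and 2728 in wild-type pools on U74Av2 (5 of 8 markers), and 25281 and 31694 against 24142 and 28421 on MOE430v2 (7 of 8 markers). These sums overlapped, while single markers differed in direction. The median log2 ratio was 0.51 on U74Av2 and 0.051 on MOE430v2, Utf1 lay above in both null pools (ratio 0.51 on U74Av2, 1.07 on MOE430v2) and Sox2 below (-0.40 and -0.37), and none passed the test. Visceral endoderm markers summed to a signal of 14592 and 10320 in null pools against 10450 and 10269 in wild-type pools on U74Av2 (15 of 18 markers), and to 134686 and 110684 against 101716 and 107683 on MOE430v2 (17 of 18 markers). The U74Av2 sums overlapped. Null pools lay above wild-type pools at 7 of those 15 markers, against 19.2% of all genes, and at 8 of the 17, against 21.7%. They lay below at 1 of the 15, against 21.1%, and at 0 of the 17, against 23.7%. The study states that its mutant embryos do not displace their wild-type visceral endoderm, whereas wild-type embryos do. It holds that genes raised in the mutant therefore cannot be separated from enrichment of that tissue. The 6 trophoblast markers tested on U74Av2 summed to 1034 and 1032 in null pools against 898 and 713 in wild-type pools, and the 5 tested on MOE430v2 to 5713 and 5717 against 4781 and 4435, with the null pools higher on each. Hand1 was the brightest of these markers in every pool on both platforms. On MOE430v2 its log2 signal was 11.51 and 11.85 in null pools against 10.86 and 10.93 in wild-type pools. It weighed most in these sums, which therefore do not describe the other markers. Hand1 and Tfap2c were the markers separated upward on both, whereas 0 of 6 on U74Av2 (21.1% of all genes) and 2 of 5 on MOE430v2 (Esx1 and Plac1, 23.7% of all genes) were separated downward, and the median ratio was 0.29 on U74Av2 and -0.092 on MOE430v2. Primitive blood markers summed to 381 and 186 in null pools against 158 and 368 in wild-type pools on U74Av2 (5 of 6 markers), and to 1422 and 283 against 309 and 1242 on MOE430v2 (3 of 6 markers), so that null pool 1 and wild-type pool 2 stood high. Node and notochord markers, of which Foxa2 is one, summed to 229 and 241 in null pools against 480.3 and 616 in wild-type pools on U74Av2, and to 1223 and 1347 against 3106 and 3548 on MOE430v2. No marker tested was listed at 0 in any pool. In pooled embryos fewer cells of a type and less RNA per cell cannot be told apart, and the part of these other cells or of the epiblast makeup in the members' ratios was not tested.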

How the data were processed

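RNA of 2 Foxa2 null and 2 wild-type embryo pools was measured on U74Av2 and MOE430v2 arrays. The authors deposited intensity values from MAS5, linear and scaled so that every array has the same trimmed mean, 150 on U74Av2 and 500 on MOE430v2. Groups follow the genotype in the labels. The U74Av2 hybridizations fell in 2 sessions with 1 array of each genotype, by the supplementary analysis notes, but the labels do not say which pools shared one, so no value within a session was computed.

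Work was done in R (version 4.3.3, data.table package version 1.17.8) on log2 signals, with those listed at 0 set to 0.1. U74Av2 was used as scaled, and MOE430v2 was normalized by cyclic loess, since the methods name a loess step. Controls (66 and 64) and probe sets whose mean ranked in the lowest 30% were left out, which leaves 8695 and 31526. The limma 3.58.1 fit (lmFit, eBayes with an intensity trend) compared Foxa2 null with wild-type pools, two-sided, with Benjamini-Hochberg adjustment over all probe sets tested. A ratio is Foxa2 null minus wild-type in log2. The fit and its intervals were tested on simulated data with known differences. A gene was read at its probe set with the highest mean. For genes on both platforms the arrays of an extract were centred per gene and averaged. The number of arrays limits precision, and p-values rest on the spread between 2 pools per genotype together with that borrowed from probe sets of like signal. Present calls and the study's tests on single probes were not used here.

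Probe sets were named from a platform annotation (10836 and 34945 with 1 gene, 396 and 932 with several, 1190 and 9160 with none), apart from those of Bax and Trp53. The members and lists were chosen with earlier results of these data known. Named are all members, genes called, and up to 3 genes per list and direction with the largest mean ratio among those separated the same way on both platforms. Gtse1, Esx1 and Plac1 fall outside this rule and were named after their values were seen. Alternatives covered normalization, the filter, an offset (16 and 50), the variance model, a replicate block, the probe set per gene and leaving out each pool.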

Additional observations from a re-analysis of the deposited data

How the results depend on the processing

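No member probe set was called on U74Av2, and no member gene in the fit over both platforms, under any alternative run. On MOE430v2 the count was 0 in all but the fit with a replicate block, where it was 1 (Ccng1 at 1450017_at, ratio 0.69, adjusted p = 0.0378). The pool numbers are not known to pair the pools, and the deviations of same-numbered pools correlated at 0.111, 0.0851 and 0.162 on U74Av2, on MOE430v2 and over both. That block called 163 higher and 129 lower on U74Av2, 846 and 802 on MOE430v2, and 262 and 240 genes over both platforms, in place of 9 and 15, 60 and 77, and 80 and 63. Without the intensity trend limma called 0 and 0 on U74Av2 (359 and 427 at an unadjusted p under 0.05), 0 and 0 on MOE430v2 (1555 and 1514), and 0 and 2 over both. With no filter the counts were 0 and 3 on U74Av2 (493 and 575 unadjusted) and 16 and 27 on MOE430v2. With the dimmest 50% left out, 25 were lower on U74Av2 and 1 member gene was above 0 there, and 178 and 145 were called on MOE430v2. An offset of 50 gave 123 and 118 on MOE430v2.

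Leaving out each pool in turn gave 2 to 19 higher and 11 to 29 lower on U74Av2, 16 to 84 and 13 to 153 on MOE430v2, and 23 to 128 and 30 to 134 over both. The member median ranged from -0.16 to 0.054 on U74Av2 and from 0.021 to 0.21 on MOE430v2, with 2 to 4 and 5 to 8 genes above 0, and 3 to 6 over both.

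Several ratios changed sign as 1 pool was left out, none of them past the threshold. On U74Av2 the range was -0.32 to 0.22 for Btg2 at 101583_at and -0.25 to 0.054 for Cdkn1a at 98067_at, both turned without Foxa2 null pool 1, and -0.15 to 0.31 for the second probe set of Trp53, turned without pool 2 of either genotype, where it was -0.15 and -0.095. On MOE430v2 leaving out wild-type pool 1 turned Btg2 at 1416250_at (-0.17 to 0.66), Perp (-0.059 to 0.41), Trp53inp1 at 1416927_at (-0.079 to 0.32) and Mdm2 at 1427718_a_at (-0.20 to 0.022). Leaving out Foxa2 null pool 2 turned Ccng1 at 1450016_at (-0.021 to 0.16), and leaving out wild-type pool 2 turned Btg2 at 1448272_at (-0.13 to 0.35). Either Foxa2 null pool 2 or wild-type pool 1 turned Trp53inp1 at 1416926_at (-0.11 to 0.17), Pmaip1 (-0.27 to 0.38) and Sesn2 at 1451599_at (-0.42 to 0.24). Over both platforms the range was -0.12 to 0.31 for Btg2, -0.16 to 0.054 for Phlda3 and -0.27 to 0.14 for Perp. Mdm2 over both was -0.15 with all its probe sets averaged, the dim 1457929_at (ratio -1.92) among them. With 1 pool left out, the lone pool is assumed to vary like the other genotype. The scalings tried changed no member's direction. Dim probe sets, such as Mdm2 at 1457929_at, carry the widest intervals.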
